A study of Mus musculus with 8 samples.

Results

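The genes of the mitochondrial respiratory chain and of ATP synthase were followed in mouse mammary tumours with floxed or wild-type Stat3. A gene was a member where the array's gene name began with Nduf, Uqcr, Atp5, or Cox followed by 4, 5, 6, 7 or 8, or was Sdha, Sdhb, Sdhc, Sdhd or Cyc1. This gave 83 genes on 114 probes, of 27962 genes on 41174 probes in all. By name, 37 belonged to complex I, 4 to complex II, 8 to complex III, 18 to complex IV and 16 to complex V, the ATP synthase. The name also caught genes that are not subunits of the complex they are counted with. Among them were Cox4nb, whose accession is that of Emc8, a protein of the endoplasmic reticulum membrane complex, and Ndufaf1, an assembly factor. Others were Cox7a2l, a factor of supercomplex assembly, and Ndufa4, a protein now placed in complex IV. Each complex below is thus a group by gene name and not a checked list of subunits. Every member passed the filter on dim probes (tumour channel well above background on at least 3 of 8 arrays), as did 20942 of all genes.

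Both groups were tumours of virgin female mice carrying MMTV-NIC, a transgene in which the promoter of mouse mammary tumour virus drives 1 transcript for both an activated form of the Neu (ErbB2) receptor and the recombinase Cre, mainly in the mammary epithelium. The tumours were collected 6 weeks after palpation. The floxed group, Stat3flx/flx/MMTV-NIC, had 5 single tumours (floxed tumours 1 to 5), in which Cre can delete Stat3 only in cells that express the transgene. The wild-type group, Stat3wt/wt/MMTV-NIC, had 3 pools of 5 tumours each (wild-type pools 1 to 3), so its spread is that of pools and not of single tumours. Each tumour RNA was labelled with Cy5 and hybridised against the same Cy3-labelled universal mouse reference RNA. A level is given as the log2 ratio of tumour over reference, and a difference is the mean of the floxed tumours minus the mean of the pools. All 8 arrays carried the reference in the same dye, and on each of the 3 slides the pool sat at array position 1 and the floxed tumours at positions 2 to 4, so genotype and array position cannot be told apart.

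Oxidative phosphorylation couples electron transfer to ATP production at the inner mitochondrial membrane. Complex I (NADH dehydrogenase) and complex II (succinate dehydrogenase) feed electrons to ubiquinone, complex III passes them on to cytochrome c, complex IV (cytochrome c oxidase) hands them to oxygen, and ATP synthase uses the proton gradient built by complexes I, III and IV. Most subunits are encoded in the nucleus and are abundant in nearly every cell, while a few subunits of complex IV have isoforms typical of heart and skeletal muscle, lung or testis. The core subunits encoded by mitochondrial DNA were not matched by name and were not analysed here.

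The arrays correlated with each other at r from 0.85 to 0.96 over all genes, with between 71.7% and 77.3% of their probes above background. Stat3 itself had log2 ratios of -1.32, -1.33, -1.48, -1.22 and -1.12 in floxed tumours 1 to 5 and of 0.12, 0.86 and 1.27 in the pools. Its difference was -2.05 ± 0.24 (SE), with no overlap of the groups (two-sided exact permutation p = 0.0179, the smallest that 5 against 3 samples allow) and a limma adjusted p of 0.105. The 13 luminal epithelial markers were all detected, at a median log2 ratio of 4.08. Floxed tumour 5 had the highest summed tumour channel signal of 30 skeletal muscle markers (88240, against 32447 to 46191 in the other floxed tumours and 29342 to 46192 in the pools). Floxed tumour 1 had the highest sum of 12 adipocyte markers (165241, against 71729 to 99542 in the other floxed tumours and 62023 to 89259 in the pools), with Adrb3 never above background. In RNA of whole tumours, fewer cells of a type and less RNA per cell cannot be told apart.

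The respiratory chain genes were among the brightest genes of these tumours, and most stood slightly above the reference. Of the 83 members, 71 (85.5%) lay in the brightest decile of all genes by mean log2 signal. The median member had a log2 ratio of 0.37, and 63 members (75.9%) were above the reference and 20 below it. Over all genes tested the median was 0.06, and 53.7% were above the reference. The 16 ATP synthase genes were all above the reference, from 0.02 for Atp5g2 (a c-ring subunit) to 1.89 for Atp5c1 (the gamma subunit of the central stalk), with a median of 0.83. The medians of the other complexes were 0.29 for complex I, 0.12 for complex II, 0.27 for complex III and 0.65 for complex IV. These levels depend on the reference RNA, and the median over members was 0.61 when arrays were centred on their median without loess.

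Within complex I the levels ran from -0.78 for Ndufa10, an accessory subunit, to 1.21 for Ndufb11, a subunit of the membrane arm. Complex III ran from -0.39 for Uqcrq to 1.06 for Uqcrfs1, the Rieske iron-sulfur protein. Complex II ran from -0.65 for Sdhb, its iron-sulfur subunit, to 0.30 for Sdha, its flavoprotein. Complex IV had the widest range of all, from -3.88 for Cox6a2 to 3.58 for Cox8b, both of them muscle isoforms.

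**Figure D1:**
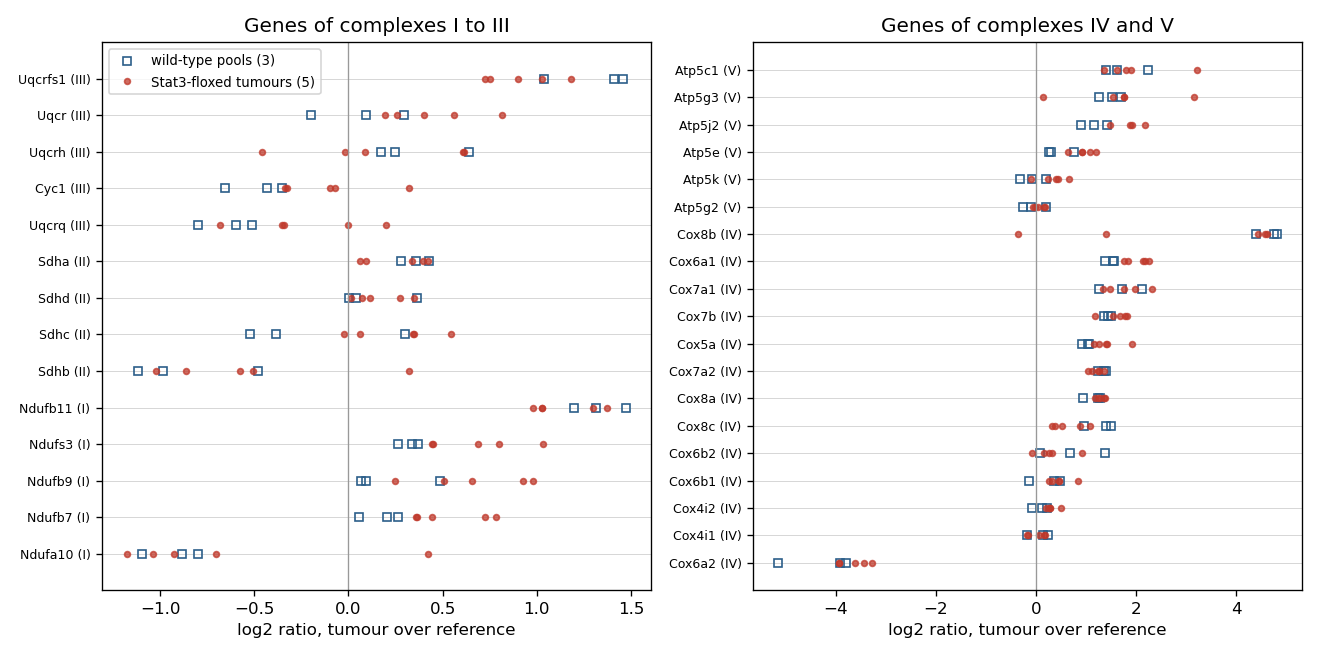
Log2 ratio of tumour over reference RNA for 33 of the 83 genes (rows, with the complex in brackets, ordered by mean within a complex) in 5 Stat3-floxed tumours (filled circles) and 3 wild-type pools (open squares). The panels differ in the range of the axis, the groups overlap for most genes, and Cox8b spreads from -0.35 to 4.82.

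Between the genotypes, no member passed the threshold of an adjusted p under 0.05 in limma's test, and the smallest adjusted p of a member was 0.94. Over all genes tested the share called was 0.00478%, 1 gene of 20933 (Dppa1, named after its value was seen). At an unadjusted p under 0.05, 7 of 83 members (8.43%) were called, against 5.03% of all genes. Higher ratios in the floxed tumours were found for 5 of them, Ndufb7, Cox5a, Cox6a1, Atp5e and Atp5j2 (6.02%, against 1.62% of all genes). Lower ratios were found for Uqcrfs1 and Cox8c (2.41%, against 3.4%). The groups did not overlap for 5 of the 82 members with a value on every array, all with higher ratios in the floxed tumours: Ndufb7, Ndufs3, Cyc1, Cox5a and Cox6a1. The share without overlap was 3.19% over all genes with 1.01% in the higher and 2.17% in the lower direction.

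The difference over the members as a list was small and leaned to higher ratios in the floxed tumours. The median difference was 0.10 on the log2 scale, with 57 of 83 members (68.7%) higher, against a median of -0.01 and 47.3% higher over all genes. The sign turned under another scaling: with each array centred on its median and no loess, the members' median was -0.02 with 39 of 83 higher, and that of all genes was -0.05. By complex, 14 of 16 ATP synthase genes were higher (median 0.19), 3 of 4 genes of complex II (0.18), 10 of 18 of complex IV (0.10), 25 of 37 of complex I (0.09) and 5 of 8 of complex III (0.02). The members' median on each array, taken relative to the mean of the pools, was 0.24, 0.13, -0.01, 0.21 and -0.03 in floxed tumours 1 to 5 and -0.06, 0.00 and 0.06 in the pools. Floxed tumours 1, 2 and 4 were thus above every pool, and floxed tumours 3 and 5 lay among the pools. Without floxed tumour 1 the median difference was 0.05. Within the slide that held pool 1 the members' median difference was 0.12, and with pool 2 it was 0.25. With pool 3 it was -0.01, where the median of all genes was -0.08.

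Among the 11 lists of cell type markers, the skeletal muscle list had the largest positive median difference. Of its 25 measured markers, 24 (96%, against 47.3% of all genes) had higher ratios in the floxed tumours, with a median difference of 0.35 and of 0.36 in the tumour channel. Relative to the pools' mean, its median was 0.13, 0.38, 0.05, -0.23 and 1.27 in floxed tumours 1 to 5 and -0.04, 0.01 and 0.05 in the pools, with floxed tumour 5 the highest and floxed tumour 4 the lowest. Of 8 basal and myoepithelial markers, 5 were lower, with a median difference of -0.63, and pool 3, at 1.08, was above the -0.79 to 0.07 of the other arrays. Their summed tumour signal did not follow this, at 83102 to 97210 in the floxed tumours and 60655 to 85787 in the pools. The median differences of the 9 other marker lists lay between -0.20 and 0.16. No marker passed the adjusted threshold in the ratio, and the part of these cells in the members' values was not tested.

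**Figure D2:**
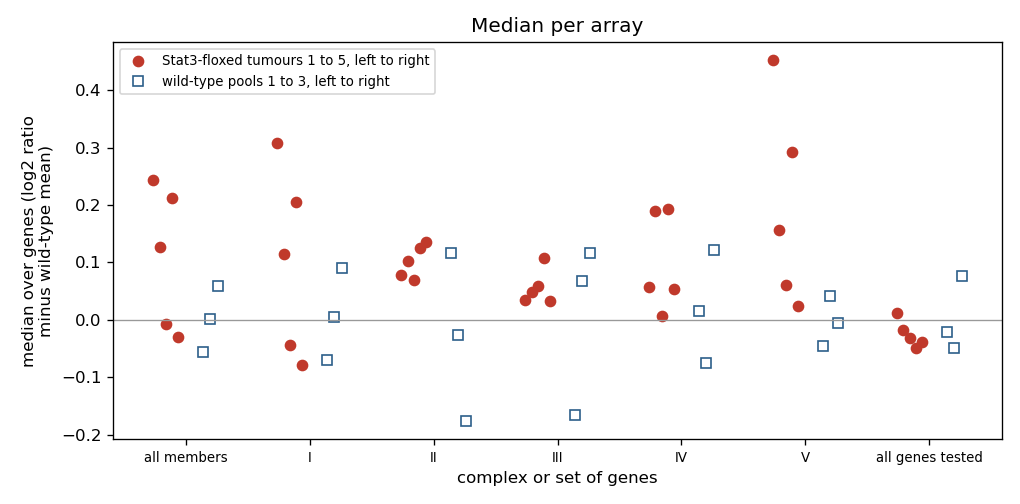
Median per array of the log2 ratio minus the wild-type mean (vertical axis) for all members, for each complex and for all genes tested, in floxed tumours 1 to 5 (filled circles) and wild-type pools 1 to 3 (open squares). The ATP synthase genes reach 0.45 in floxed tumour 1, while floxed tumours 3 and 5 lie near the pools.

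The ratio combines both channels, so the tumour channel and the reference channel were also compared alone. Both were taken after loess on the ratio, so neither is independent of the other. In the tumour channel the members' median difference was 0.05, with 52 of 83 higher, against -0.02 and 45.8% over all genes. In the reference channel, which held the same RNA on every array, it was -0.06, with 30 of 83 higher, against -0.01 and 43.6%. No member passed the adjusted threshold in either channel, where 0.0239% of all genes did in the tumour channel (Dppa1, Clca1, Ocm, Clca2 and Stat3) and 0.00478% in the reference channel (Clca2). The names other than Stat3 were chosen after their values were seen. At an unadjusted p under 0.05, 1 member (1.2%) was called in the tumour channel, against 4.91% of all genes (1.6% higher and 3.32% lower). In the reference channel 18 members (21.7%) were called, against 6% of all genes. On the arrays of the floxed tumours, 14 of them had lower reference signals (16.9%, against 3.55% of all genes) and 4 had higher ones (4.82%, against 2.45%). The groups did not overlap in the reference channel for 7 of 82 members (8.54%, against 4.56%). Of these, 5 were lower (6.1%, against 3.29%) and 2 higher (2.44%, against 1.27%). With the tumour channel scaled without the reference, the members' median difference was 0.04, with 48 of 83 higher, against -0.02 and 45.8% over all genes. With the reference channel scaled alone it was -0.04, with 33 of 83 higher, against -0.01 and 44.1%.

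For the median member, the SD within groups was 0.13 in the tumour channel, 0.16 in the reference channel and 0.26 in the ratio. For the median of all genes these values were 0.28, 0.08 and 0.29. The reference channel varied more than the tumour channel for 54 of 83 members (65.1%), for 35.3% of the brightest decile of genes and for 6.63% of all genes. Likewise, the group difference was larger in size in the reference channel than in the tumour channel for 53 members (63.9%), for 47.3% of the brightest decile and for 21.4% of all genes.

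**Figure D3:**
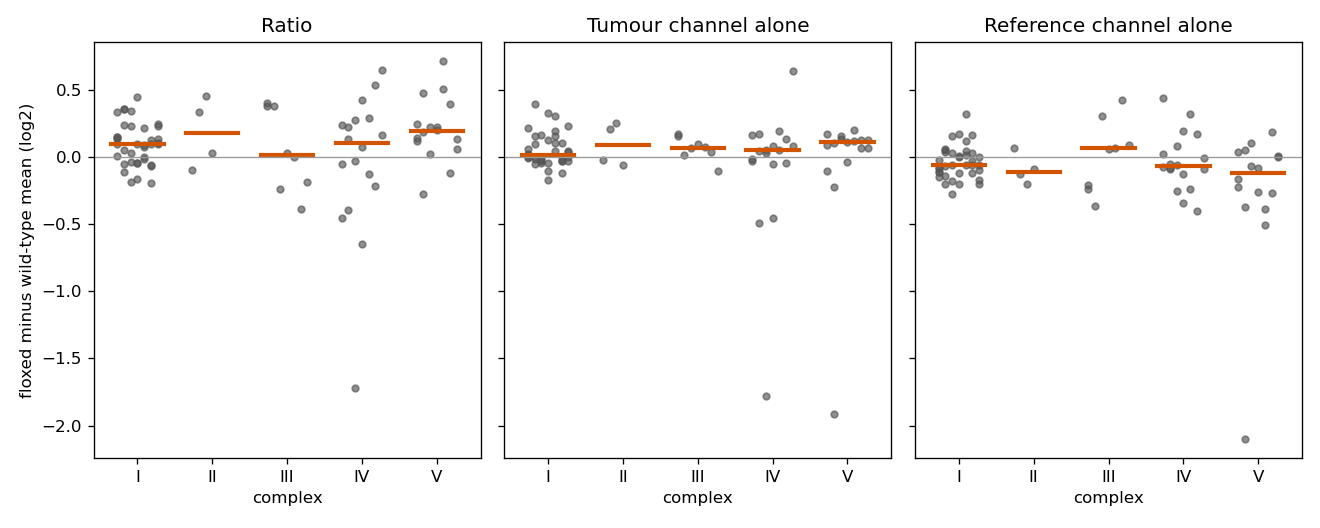
Floxed minus wild-type mean (log2, vertical axis) of each member by complex, in the ratio, in the tumour channel alone and in the reference channel alone, with a bar at the median of each complex. The ATP synthase median is 0.19 in the ratio, 0.11 in the tumour channel and -0.12 in the reference channel, and the lowest point of complex V in both single channels is Atp5g3, with 1 spot at background.

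Probes are shown, as their first 30 of 60 bases, for 4 members whose ratio difference lay mostly in the reference channel (Cox6a1, Atp5j2, Atp5e and Uqcrfs1) and for Ndufs3, where it lay in the tumour channel, because the values that follow are those of these oligonucleotides. Positions of the whole probes are those of the array's annotation on mouse build mm7, from which Cox6a1 lies at chr5:114566550-114566609 (minus strand), Atp5j2 at chr5:144213224-144213283 (minus), Atp5e at chr2:174205549-174205608 (minus), Ndufs3 at chr2:90745398-90745457 (minus) and Uqcrfs1 at chr13:29906041-29906100 (minus).
Cox6a1: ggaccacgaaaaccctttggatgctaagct
Atp5j2: gaccggtattacaacaagtacatcaacgtt
Atp5e: agcctgaagtgctgagtcttgaaggtgaag
Ndufs3: aagctggagacaagaagcctgaaaccaagt
Uqcrfs1: gcataataaaaccactgttgaacatcatta

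Complex I had 1 member called at an unadjusted p under 0.05 among 37 (2.7%, against 5.03% of all genes), and its tumour channel median difference was 0.02. Ndufs3, a core subunit of the matrix arm, had log2 ratios of 1.03, 0.45, 0.80, 0.69 and 0.44 in the floxed tumours and of 0.37, 0.34 and 0.26 in the pools. All 5 floxed tumours were above all 3 pools, by a difference of 0.36 ± 0.17 (SE; exact permutation p = 0.0357, limma adjusted p = 0.94). The difference lay in the tumour channel, where it was 0.40, and not in the reference channel, where it was 0.04. In the tumour channel pool 3, at 15.06, was the lowest of the 8 arrays and the other pools, at 15.62 and 15.64, were just below floxed tumour 2, at 15.65.

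Ndufb9, an accessory subunit of the membrane arm, was the member with an unadjusted p under 0.05 in the tumour channel. Its tumour channel values were 16.59, 16.30, 16.59, 16.40 and 16.41 in the floxed tumours and 16.29, 16.18 and 15.92 in the pools. The difference there was 0.33 ± 0.14 (SE; limma adjusted p = 0.907), and floxed tumour 2 cleared pool 1 by a margin smaller than the spread within either group. In the ratio the groups overlapped, with a difference of 0.45.

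Ndufb7, another accessory subunit of the membrane arm, had ratios of 0.44, 0.78, 0.36, 0.73 and 0.36 in the floxed tumours and of 0.27, 0.20 and 0.05 in the pools. Its ratio difference of 0.36 ± 0.15 (SE) was made of 0.16 in the tumour channel and -0.20 in the reference channel. Ndufa10 had a ratio of 0.42 in floxed tumour 1 and of -1.17 to -0.70 on the 7 other arrays, and its group difference was 0.24 ± 0.34 (SE).

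Of the 4 subunits of complex II, none had an unadjusted p under 0.05 in the ratio. Sdhc, a membrane anchor, had the largest difference, 0.46 ± 0.22 (SE; limma adjusted p = 0.94). Its ratios were -0.02, 0.34, 0.06, 0.54 and 0.35 in the floxed tumours and -0.39, 0.30 and -0.52 in the pools, so pool 2 lay within the floxed range. Sdhb had a ratio of 0.32 in floxed tumour 1, against -1.02, -0.51, -0.86 and -0.57 in the other floxed tumours and -0.48, -0.99 and -1.12 in the pools. Sdha, with a difference of -0.09, and Sdhd, the second anchor, with 0.03, lay within the replicate spread.

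In complex III, Cyc1 (cytochrome c1) had ratios of 0.32, -0.10, -0.07, -0.34 and -0.33 in the floxed tumours and of -0.66, -0.43 and -0.35 in the pools. The groups did not overlap, with a difference of 0.38 ± 0.18 (SE; exact permutation p = 0.0357, limma adjusted p = 0.94), but in the tumour channel alone they did overlap, with a difference of 0.17. Floxed tumour 1 was the highest in both. Uqcrfs1 went the other way, with ratios of 0.75, 0.90, 1.18, 0.72 and 1.03 in the floxed tumours and of 1.46, 1.04 and 1.41 in the pools. Its ratio difference of -0.38 ± 0.17 (SE; limma adjusted p = 0.94) came with a difference of 0.04 in the tumour channel and of 0.42 in the reference channel. The small subunits Uqcrq and Uqcr (Uqcr11) had ratio differences of 0.40 and 0.38 with overlapping groups, and of 0.16 and 0.02 in the tumour channel. Uqcrh, the hinge protein, had the largest spread of the complex among the floxed tumours and a difference of -0.19.

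In complex IV the subunit with the smallest unadjusted p was Cox6a1, the form of subunit VIa found in most tissues. Its ratios were 2.25, 1.84, 2.14, 1.76 and 2.17 in the floxed tumours and 1.57, 1.37 and 1.55 in the pools, so every floxed tumour was above every pool. The difference was 0.54 ± 0.16 (SE), a 1.45-fold higher ratio (exact permutation p = 0.0357, limma adjusted p = 0.94). In the tumour channel the values were 17.46, 17.31, 17.47, 17.26 and 17.44 against 17.14, 17.34 and 17.27, which overlap, with a difference of 0.14 ± 0.12 (SE). The reference channel carried the other -0.40 ± 0.10 (SE) of the difference, with no overlap of the groups. Cox5a, subunit Va, had a ratio difference of 0.42 that was made of 0.08 in the tumour channel and -0.34 in the reference channel.

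**Figure D4:**
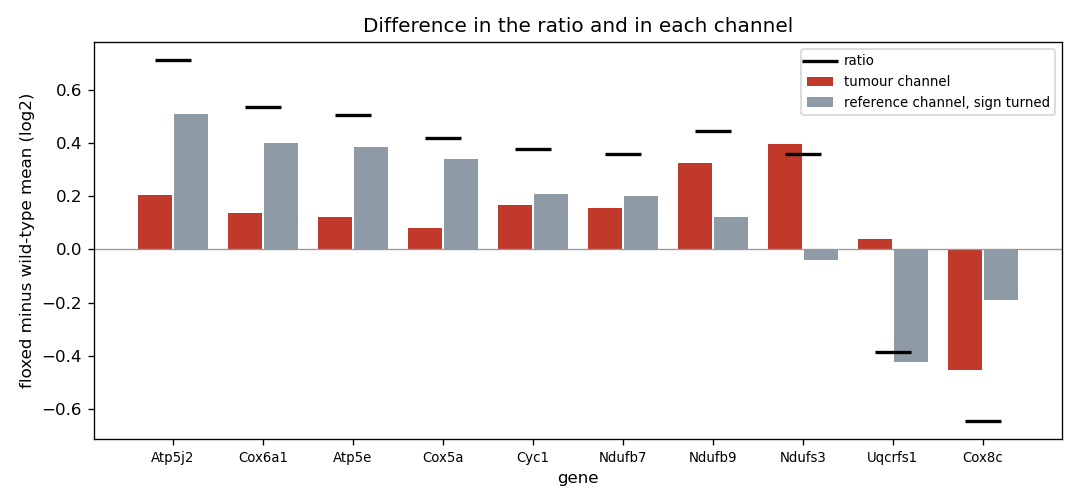
Floxed minus wild-type mean (log2, vertical axis) of 10 members in the tumour channel (dark bars), in the reference channel with its sign turned (grey bars) and in the ratio (dash, the sum of both bars). Ndufs3, Ndufb9 and Cox8c have their larger part in the tumour channel, while Atp5j2, Cox6a1, Atp5e, Cox5a and Uqcrfs1 have it in the reference channel.

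Of all members, Cox8b differed most from tumour to tumour (SD of its ratio over the floxed tumours 2.29), and the probes of subunit VIII are therefore shown for its 3 genes. Cox8a is the form of most tissues, Cox8b the form of heart and skeletal muscle, also found in brown fat, and Cox8c the form of testis. On build mm7 the probes lie at chr19:7035098-7035157 (minus strand), chr7:137316216-137316275 (minus) and chr12:100395762-100395820 (plus), and the first 30 of 60 bases are given.
Cox8a: tcatgttattcaattccagtcacctcttct
Cox8b: ctataaaaagagctccgcagcatgaagttg
Cox8c: gcatcatatggacgacgaacataatctgct

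No run longer than 6 bases was shared between any pair of the 3 whole probes, on either strand. The same held for the probes of Cox6a1 and Cox6a2, of Cox6b1 and Cox6b2, of Cox7a1 and Cox7a2, and of Cox4i1 and Cox4i2. Probes were compared only with each other and not with transcripts, so binding of a probe to another isoform's RNA was not tested.

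Cox8b had log2 ratios of -0.35, 1.41, 4.61, 4.43 and 4.58 in floxed tumours 1 to 5 and of 4.82, 4.41 and 4.75 in the pools. Floxed tumours 1 and 2 were thus 32.2-fold and 9.52-fold below the mean of the pools, and the other 3 floxed tumours were level with the pools. The tumour channel showed the same, at 7.66 and 9.28 against 12.45 to 13.12 on the 6 other arrays, while the reference channel stayed between 7.70 and 8.61. All 8 spots were well above background in the tumour channel. With 2 of 5 floxed tumours low, the group difference of -1.72 ± 1.13 (SE) did not exceed the spread (exact permutation p = 0.196, limma adjusted p = 0.94). Its sign held under every alternative of the ratio and in the tumour channel. The difference in the reference channel, also negative, enters the ratio with its sign turned.

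The other muscle isoforms did not follow Cox8b. Cox6a2 had ratios of -3.62, -3.44, -3.93, -3.93 and -3.29 in the floxed tumours and of -3.81, -3.92 and -5.15 in the pools. Floxed tumours 1 and 2 were above every pool and below floxed tumour 5 only, and pool 3 was lowest. Cox7a1 had 2.33, 1.75, 1.33, 1.97 and 1.47 against 1.25, 1.72 and 2.11, with floxed tumour 1 the highest of all. The summed signal of the skeletal muscle markers in floxed tumours 1 and 2, at 46191 and 39105, lay within the range of the pools. The summed signal of 8 brown adipocyte markers was 6400 and 10831 in these tumours and 3993 to 6770 in the pools. The part of muscle tissue or brown fat in the Cox8b values was not tested. Cox6a2 and the muscle markers were both highest in floxed tumour 5, and the part of muscle tissue in that value was not tested.

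Cox8a, in contrast, was the steadiest of the 3, with ratios between 1.19 and 1.39 in the floxed tumours, 0.94 to 1.29 in the pools and a difference of 0.13 ± 0.14 (SE). Cox8c was dim, with the tumour channel well above background in 2 of 5 floxed tumours and in 3 of 3 pools. Its ratio difference of -0.65 ± 0.22 (SE; limma adjusted p = 0.94) therefore rests on values near background in the floxed tumours. Cox4i2, the lung form of subunit IV, had a difference of 0.22, and Cox4i1, the form of most tissues, one of -0.05. Cox6b2, a testis form, had -0.40 with pool 3 the highest, and Cox6b1 had 0.24, Cox7a2 -0.12 and Cox7b 0.17, all with overlapping groups.

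**Figure D5:**
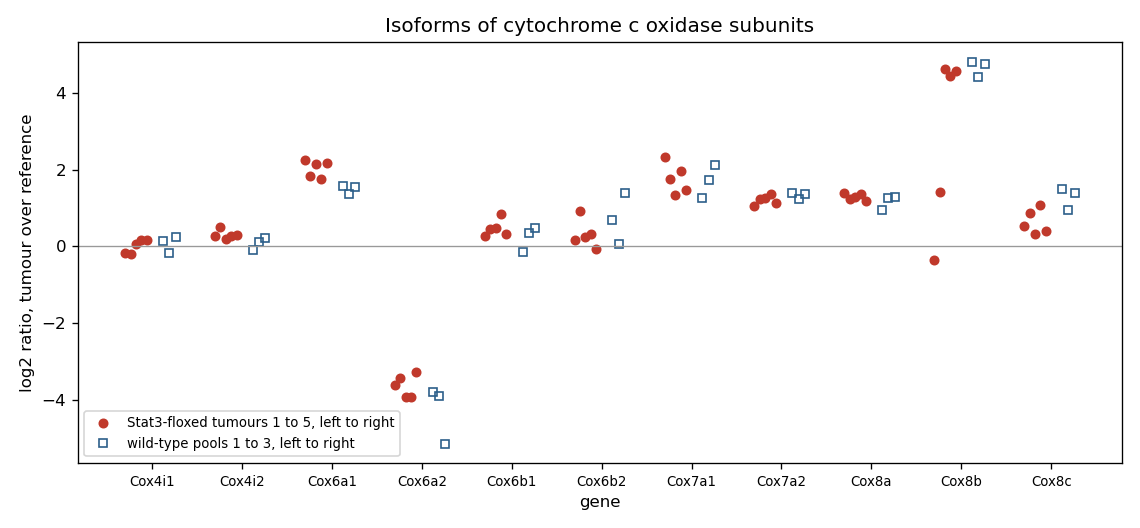
Log2 ratio of tumour over reference RNA (vertical axis) of 11 isoform genes of cytochrome c oxidase in floxed tumours 1 to 5 (filled circles, left to right) and wild-type pools 1 to 3 (open squares, left to right). Cox8b lies at -0.35 and 1.41 in floxed tumours 1 and 2 and between 4.41 and 4.82 on the other 6 arrays.

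ATP synthase was the complex with the highest share of members with higher ratios in the floxed tumours, 14 of 16. In the tumour channel the highest share was that of complex III, with 7 of 8 members higher and a median difference of 0.07. Atp5j2, subunit f of the membrane part, had ratios of 1.89, 2.18, 1.48 and 1.93 in floxed tumours 2 to 5 and of 1.15, 1.42 and 0.89 in the pools, and its spot on floxed tumour 1 carried an outlier flag and was left out. The ratio difference of 0.71 ± 0.21 (SE; limma adjusted p = 0.94), the largest positive difference of any member, was 0.20 in the tumour channel and -0.51 in the reference channel. Atp5e, the epsilon subunit of the central stalk, had ratios of 1.20, 1.07, 0.93, 0.92 and 0.65 against 0.27, 0.76 and 0.30, with floxed tumour 5 below pool 2. Its difference of 0.51 ± 0.18 (SE) was 0.12 in the tumour channel and -0.39 in the reference channel. Atp5k, subunit e, differed by 0.40 in the ratio and 0.13 in the tumour channel. Of the 16 ATP synthase genes, 12 were higher in the tumour channel, with a median difference of 0.11.

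Some ATP synthase values turned on single spots. Atp5c1 had a ratio of 3.22 in floxed tumour 1, against 1.36, 1.89, 1.61 and 1.79 in the other floxed tumours and 1.63, 1.39 and 2.23 in the pools. Its tumour channel was 16.96 on that array and 16.55 to 16.80 elsewhere, and its reference channel was 13.74 against 14.42 to 15.22. Atp5g3, a c-ring subunit, had a ratio of 3.16 in floxed tumour 1, with a reference channel of 13.73 against 15.04 to 15.68 elsewhere, leaving out floxed tumour 3. On floxed tumour 3 its spot was at background in both channels (6.80 and 6.66), although the scanner software had not marked it as an outlier. With that spot its ratio difference was 0.19 and its tumour channel difference -1.91. Without that spot they were 0.57 and 0.10.

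Floxed tumour 1 stood apart over the members as a set. It had the highest ratio of the 8 arrays for 35 of 82 members (42.7%), against 20.8% of all genes, and the lowest for 12 members (14.6%), against 17.5%. The SD of its members' deviations from the median of the 8 arrays was 0.72, against 0.14 to 0.44 on the other arrays. Cox8b alone made up much of this, and without it the SD was 0.45, against 0.14 to 0.33. The ratios of floxed tumour 1 correlated with those of the other arrays at r from 0.59 to 0.74 over the 82 members and from 0.76 to 0.83 without Cox8b, as a description of arrays that share 1 reference RNA. Of 11 member values that lay at least 1 log2 unit from the median of the other 7 arrays, 6 were in floxed tumour 1: Ndufa2, Ndufa10, Sdhb, Atp5c1 and Atp5g3 above it and Cox8b below it. For Atp5c1, Atp5g3 and Ndufa2 this distance was -1.21, -1.38 and -0.79 in the reference channel and 0.31, 0.09 and 0.47 in the tumour channel. For Ndufa10, Sdhb and Cox8b it was -0.41, -0.36 and -0.26 in the reference channel and 1.03, 0.76 and -5.14 in the tumour channel. Floxed tumour 1 also had the highest adipocyte marker signal, and the part of fat tissue in its values was not tested.

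For 25 members the array carried several probes, of which 23 kept more than 1 past the filter. In 5 of these the probes differed in the sign of the ratio difference, none of them with an unadjusted p under 0.05 for any probe. The 3 probes of Atp5b, the catalytic beta subunit, gave ratio differences of 0.48, 0.03 and 0.57. The pair of Ndufb8 gave 0.23 and -0.20, and that of Cox4nb -0.03 and 0.44.

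Genes around the respiratory chain were compared from lists drawn up beside the members. For each list the count with higher ratios stands beside the 47.3% of all genes that were higher. Of 25 assembly factors outside the rule, 16 (64%) had higher ratios in the floxed tumours. Their median difference was 0.06 in the ratio and 0.07 in the tumour channel. Cox10, which makes heme for cytochrome c oxidase, had the smallest unadjusted p of that list, with a difference of 0.53 ± 0.23 (SE; limma adjusted p = 0.94). Of 12 genes of cytochrome c and mitochondrial carriers, 9 (75%) were higher (median 0.09, and 0.02 in the tumour channel). Cycs, somatic cytochrome c, had 0.41 with ratios of 0.05 and 0.85 in floxed tumours 1 and 2 and -0.66 to -0.39 on the 6 other arrays. Its difference was 0.17 in the tumour channel and -0.24 in the reference channel. In floxed tumour 2 its reference channel, at 15.35, was the lowest of all arrays and its tumour channel, at 16.20, the highest. Ucp2, an uncoupling protein family carrier, differed by 0.60 ± 0.35 (SE) in the ratio. Of 21 genes of the citric acid cycle and pyruvate dehydrogenase, 15 (71.4%) were higher (median 0.09, and 0.05 in the tumour channel). Pdk4, a kinase that inhibits pyruvate dehydrogenase, differed by 1.23 ± 0.54 (SE), with floxed tumour 5 highest at 0.78.

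Of 18 regulators of mitochondrial biogenesis, 8 (44.4%) were higher and 10 lower (median -0.05, and -0.01 in the tumour channel). Ppargc1a, the coactivator PGC-1 alpha, differed by 0.41, Tfam, the mitochondrial transcription factor A, by -0.25, Nrf1, nuclear respiratory factor 1, by 0.13, and Gabpb1, a subunit of nuclear respiratory factor 2, by 0.32. Their limma adjusted p values were 0.94 to 0.968. Of 75 mitochondrial ribosomal proteins, 35 (46.7%) were higher and 40 lower (median -0.02, and -0.02 in the tumour channel). Mrpl28, at -0.36 in the ratio, had the smallest unadjusted p of that list. Of 81 cytoplasmic ribosomal proteins, 16 (19.8%) were higher and 65 lower. An unadjusted p under 0.05 with a lower ratio was found for 17 of the 81 (21.0%, against 3.4% of all genes), and the median difference of the list was -0.25 in the ratio and -0.05 in the tumour channel. Rps7 differed by -0.59 in the ratio, -0.08 in the tumour channel and 0.51 in the reference channel. No gene of these lists passed the adjusted threshold.

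Promoter sequences, which the rule did not use, were compared with those of all genes. RefSeq promoters on build GRCm38.p6, from 250 bases before to 50 bases after a start site, were matched for 67 of 83 members and searched on both strands, counting a gene where any of its windows held the letters. The core of the motif of nuclear respiratory factor 1, GCATGCG, was found for 11 members (16.4%) and for 4.01% of 27025 genes. An ETS motif of the kind bound by nuclear respiratory factor 2, CCGGAAG, was found for 17 members (25.4%) and 9.93% of genes, and ATGGCGG, the core of the YY1 motif, for 10 members (14.9%) and 4.69% of genes. TATAAA was found for 6 members (8.96%) and 15.7% of genes, and CCAAT for 28 members (41.8%) and 41.1% of genes. None of these motifs contains another. Promoters of members were richer in G and C (median 57.3%, against 52.7% of all genes).

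The windows of Cox6a1, Atp5j, Atp5k, Atp5l, Sdhb and Uqcr held both the first and the second motif. The 250 bases upstream of Cox6a1 are shown because it had the smallest unadjusted p in the ratio. They lie at chr5:115348959-115349208 (minus strand, GRCm38.p6, RefSeq), with both motifs in capitals, the first on both strands in overlap and the second as its reverse complement.
Cox6a1: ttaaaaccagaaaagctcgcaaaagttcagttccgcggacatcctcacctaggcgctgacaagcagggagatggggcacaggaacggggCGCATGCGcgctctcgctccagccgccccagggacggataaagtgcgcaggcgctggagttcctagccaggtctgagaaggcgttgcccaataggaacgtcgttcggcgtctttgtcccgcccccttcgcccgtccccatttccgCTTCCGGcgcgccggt

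The window of Cox8b, the isoform that varied most, held TATAAA and none of the first 3 motifs, and that of Cox8a held the ETS motif. Neither match lay wholly within the 250 bases upstream of the start site.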

How the data were processed

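Tumour RNA (Cy5) and universal mouse reference RNA (Cy3) were hybridised on 8 Agilent 2-colour arrays. Spot intensity values were deposited per array as Agilent Feature Extraction output, with coordinates of mouse build mm7, per the file headers; mean and background intensities were not normalized. The authors' deposited table holds log2 values that followed the ratio of tumour over reference on each array (r from 0.989 to 0.994, column medians from 0.0028 to 0.0116), which gives their direction and approximate log2 scale. The submitters' processing notes name Feature Extraction and RMA, and how that table was centred stays unknown here.

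Here, background was corrected with normexp (offset 50) and ratios were normalized by loess within arrays (limma 3.58.1, R 4.3.3). Control spots had weight 0 and spots with outlier flags were left out. Spots of a probe were averaged, probes well above background in the tumour channel on at least 3 of 8 arrays were kept, and the brightest probe stood for a gene, by the array's gene name. Single channels were scaled by quantiles of the mean signal (Aquantile), so that a ratio difference is the tumour difference minus the reference difference. Groups were compared by limma's moderated test (two-sided), and p values were adjusted by Benjamini-Hochberg across every gene tested, with a threshold of 0.05. Single genes were also tested by exact permutation over 56 splits. The script was tested on simulated data. The precision is limited by the number of arrays.

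The members, lists and tests were chosen with earlier results of these data known. Text names Stat3, and in each complex the 3 smallest ratio p values, the smallest tumour channel p, the highest and lowest level and the largest floxed SD, all of complex II, Cyc1 and the tissue isoforms of complex IV (Cox7b2 was not matched), the leading gene of each further list, and Ppargc1a, Tfam, Nrf1 and Cycs. Other names were chosen after their values were seen. Alternatives covered background, normalization, filter, probe choice, slide, variance model, channel and each array left out. Of reference sequences, only the RefSeq promoters were used. The count of members without overlap in the tumour channel is not reported here.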

Additional observations from a re-analysis of the deposited data

Results flagged for a closer look

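Among the 5 floxed tumours, a value was listed where its gap to the nearest other value, divided by the range of the group, was above 0.71. This was tested for 49 sets of values (named genes and medians by complex), of which chance would list about 1 in 20, or 2.45, and 4 were listed. The 3 pools were too few for it. For Atp5c1 the ratio of floxed tumour 1, 3.22, stood above a range of 1.36 to 1.89 in its group. For Tfam the same tumour had 0.41, with the remaining values at -0.34 to -0.13, and for Mrpl28 it had -0.23, with the remaining values at -0.45 to -0.40. For Ucp2 it was floxed tumour 5 that stood apart, at 2.07 over a range of 1.16 to 1.39. Cox8b was not listed, because floxed tumours 1 and 2 were both low and narrowed the gap.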

How the results depend on the processing

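No alternative brought a member past the adjusted threshold in the ratio or in either channel, and the lowest adjusted p of a named member under an alternative of the ratio was 0.455. Of 33 named members, 17 kept their sign under every alternative of the ratio. The number of all genes past the threshold in the ratio was 1. It was 0 with normexp at offset 0, with the scanner's processed signals, with scaling between arrays, in the authors' deposited table, with the tumour channel scaled without the reference, with no filter, with a filter on all 8 arrays, with slide as a fixed block, with trended and robust variances, with spots at background in both channels left out, and without floxed tumour 1 and pool 3 together. It was 5 in the tumour channel, and from 0 to 2 with each array left out. The number of members at an unadjusted p under 0.05 was 7. It became 4 with offset 0, with the scanner's signals, with the filter on all 8 arrays and without floxed tumour 1 and pool 3. It became 2 with median centring, 1 in the tumour channel, 0 with the tumour channel scaled alone and 18 in the reference channel. With 1 array left out it ran from 4 (without pool 1 or pool 3) to 12 (without pool 2).

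The members' median difference of 0.10 was -0.021 with median centring, -0.063 in the reference channel, 0.25 and -0.00551 within the slides of pools 2 and 3, and 0.05 to 0.15 with each array left out. In the tumour channel it ran from 0.03 to 0.07, and in the reference channel from -0.08 to -0.02 (without pool 1), with each array left out. The median level of 0.37 was 0.61 with median centring and 0.50 in the authors' table, and 0.33 to 0.38 with each array left out. The cause of these changes was not tested. The settings on spots at background, on Cox4nb, on Cox8b, on 2 arrays left out together and on the reference channel scaled alone were chosen after seeing the data. No paired analysis was possible because the labels do not tie any floxed tumour to a pool, and slide was the only block that could be fitted. With slide as a fixed block, which ties each pool to the floxed tumours of its slide, the members' median difference was 0.12 and 10 members had an unadjusted p under 0.05.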
